A study of Mus musculus with 82 samples.

Results

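Of the 55272 accessible chromatin regions listed in mouse fibroblasts on the way to pluripotency, 1254 shared one pattern of listing: they were present in the D209N day 7, Flag day 7 and D209N day 3 peak lists and missing from the Flag day 3 list. They are called D209N-early regions here, because by day 3 they were listed in cells given RNase H1(D209N) and not in cells given Flag, while both arms listed them at day 7. The regions were chosen by these presence and absence values, obtained by merging the intervals of the 4 lists on chromosomes 1 to 19, X and Y, so the pattern itself is a description and not a result. They made up 2.27% of all regions. The opposite pattern, absent only from the D209N day 3 list, held 4462 regions or 8.07% and is called Flag-early. Other sets used beside them are the 7110 regions listed by both arms at day 7 and by neither at day 3, called gained, the 21785 regions in all 4 lists, called shared, and the 1061 regions found in the D209N day 3 list alone. The names early and gained describe listing only. The series has no ATAC-seq list of the starting fibroblasts, so whether a region was already open in them is unknown.

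The 4 groups were OSKM with RNase H1(D209N) at day 7, OSKM with Flag at day 7, OSKM with RNase H1(D209N) at day 3 and OSKM with Flag at day 3. All 4 groups started from OG2-MEFs, mouse embryonic fibroblasts of a line with a green fluorescent reporter driven by Oct4 regulatory sequence, and all received OSKM, the reprogramming factors Oct4, Sox2, Klf4 and c-Myc, by retrovirus. RNase H1(D209N) was delivered by a pMXs retrovirus as well, and the Flag groups are read here as its control. ATAC-seq, which cuts and tags open DNA with the Tn5 transposase, was run on 2 labelled replicates of each group, and 1 peak list per group was deposited, with interval positions and no scores or read counts.

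With 1 list per group there is no replicate spread, so no difference below has a test, and the 95% Wilson intervals given in brackets cover counting error only. The lists held 40452 intervals in D209N day 7, 42439 in Flag day 7, 29189 in D209N day 3 and 36375 in Flag day 3, with median widths of 489, 464, 464 and 472 bp in the same order. The read depth behind the lists is unknown, and a region missing from a list may have been accessible below the calling threshold. The cells were measured in bulk after infection, so a region open in fewer cells and a region less open in each cell cannot be told apart. Of 31 mesenchymal genes, 30 had an assigned region in D209N day 7 and 31 in Flag day 7. At day 3 the counts were 27 in D209N and 28 in Flag. Of 26 genes of fibroblast matrix, 22 and 24 had one at day 7 in D209N and Flag, and 21 and 23 at day 3. Over all lists together, 16159 of the 21887 coding genes had an assigned region. Markers of other cell types were not counted this way, so these counts do not check the identity of the cells.

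An R-loop is a stretch of RNA paired with one DNA strand while the other DNA strand is displaced, and it forms most readily behind RNA polymerase at GC-rich promoters whose transcribed RNA is rich in G. RNase H1 removes R-loops by cutting the RNA of the hybrid. The D209N change lies in its catalytic site, so the mutant enzyme still binds hybrids but does not cleave them, and it is used both to mark hybrids and to interfere with their removal. In fibroblast reprogramming, OSKM first act on a chromatin landscape held by AP-1, TEAD and RUNX factors. Enhancers of the fibroblast program close early, and promoters and enhancers of the pluripotency network open over the following days.

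Only promoter windows of the RefSeq table (build GRCm38.p6, 250 bases before to 50 after each gene start) were read as sequence for these regions. The 3 stretches below are the 250 bases before the gene start, outside any annotated gene, of those genes named for their widest regions, their gene group or their number of regions whose start window lay by at least 150 bases in a D209N-early region. They are shown as examples whose genes are described below, and were not picked as typical of the set: Ppp1r8 encodes NIPP1, a nuclear regulator of protein phosphatase 1, Junb encodes an AP-1 subunit, and Nes encodes the intermediate filament nestin of neural progenitors. Capitals mark a match to a KLF and SP box (CCCCNCCC), the only match found in them among the motifs of the delivered factors on either strand, which were the octamer ATGCAAAT, the SOX motif ACAATG, the KLF and SP box and the Myc E-box CACGTG.
Ppp1r8, chr4:132843170-132843419, minus strand: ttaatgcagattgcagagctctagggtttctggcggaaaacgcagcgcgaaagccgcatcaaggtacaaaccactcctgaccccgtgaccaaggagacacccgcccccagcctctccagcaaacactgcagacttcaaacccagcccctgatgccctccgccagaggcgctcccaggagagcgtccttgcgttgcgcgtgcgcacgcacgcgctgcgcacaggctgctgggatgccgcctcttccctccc
Junb, chr8:84978749-84978998, minus strand: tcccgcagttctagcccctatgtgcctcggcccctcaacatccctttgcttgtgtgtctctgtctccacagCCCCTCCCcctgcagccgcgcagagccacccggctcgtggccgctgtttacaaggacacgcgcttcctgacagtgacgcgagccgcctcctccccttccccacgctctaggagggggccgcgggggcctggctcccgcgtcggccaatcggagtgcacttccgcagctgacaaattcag
Nes, chr3:87970843-87971092, plus strand: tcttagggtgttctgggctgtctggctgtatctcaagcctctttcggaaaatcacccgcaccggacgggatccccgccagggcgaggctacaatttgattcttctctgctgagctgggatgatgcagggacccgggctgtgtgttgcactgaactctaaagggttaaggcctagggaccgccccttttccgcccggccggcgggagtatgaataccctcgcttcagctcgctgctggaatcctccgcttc
The Ppp1r8 and Nes stretches lay whole inside a D209N-early region, and 152 of the 250 bases of the Junb stretch did. The marked match in the Junb stretch lay outside those 152 bases, beyond the edge of the D209N-early region. Their GC content was 63.2% for Ppp1r8, 66.4% for Junb and 58.8% for Nes. GC skew, the excess of G over C as a share of both on the transcribed gene's own strand, was -0.19 for Ppp1r8, -0.22 for Junb and -0.01 for Nes, so none of the 3 stretches held more G than C. All 3 lie before the gene start, so these values do not describe the gene's transcribed RNA.

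The regions that separated the arms at day 3 were in both day 7 lists at similar shares. Of 2823 regions listed at day 3 in D209N and not in Flag, which is 5.11% of all regions, 44.4% (42.6 to 46.3) were in both day 7 lists, and these are the D209N-early regions. Of 10001 regions listed at day 3 in Flag and not in D209N, 18.1% of all regions, 44.6% (43.6 to 45.6) were in both day 7 lists. The ratio of D209N-early to Flag-early regions was 0.281 (0.264 to 0.299). It stands beside unequal day 3 lists, of 29189 intervals in D209N and 36375 in Flag. How far list length sets the ratio was not tested. Another 7.51% (6.59 to 8.54) of the D209N-only regions were in the D209N day 7 list alone and 10.5% (9.41 to 11.7) in the Flag day 7 list alone. Among Flag-only regions these shares were 7.36% (6.86 to 7.89) in the D209N day 7 list alone and 7.93% (7.42 to 8.48) in the Flag day 7 list alone. No day 7 list held 37.6% (35.8 to 39.4) of the D209N-only regions, against 40.1% (39.1 to 41.1) of the Flag-only regions. Of the 25878 regions listed by both arms at day 3, 84.2% were in both day 7 lists. Seen from day 7, 3.62% of the 34611 regions listed by both arms had been D209N-early and 12.9% Flag-early.

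**Figure D1:**
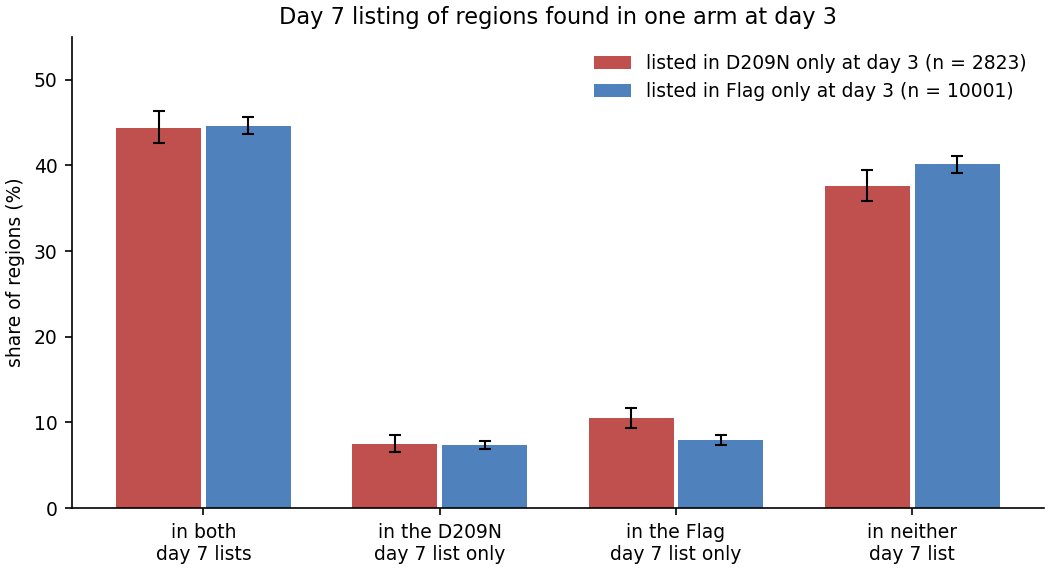
Share of regions (y axis, %) in each day 7 outcome (x axis) for the 2823 regions listed at day 3 in D209N only (red) and the 10001 listed in Flag only (blue); bars are shares and whiskers 95% Wilson intervals for counting error. The bars for both day 7 lists stand at 44.4% and 44.6%, and the D209N-early regions are the first red bar.

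Day 3 intervals in the D209N-early regions were narrow. They covered a median of 286 bp per region in D209N day 3 (quartiles 230 and 368, range 7 to 950), and the same regions held a median of 402 bp in D209N day 7 and 410 bp in Flag day 7. Flag-early regions were narrow in the same way, with medians of 422 bp in D209N day 7, 414 bp in Flag day 7 and 309 bp in Flag day 3. Shared regions were wider in every list, with medians of 701 bp in D209N day 7, 690 bp in Flag day 7, 542 bp in D209N day 3 and 621 bp in Flag day 3. In D209N day 3, 105 of the 1254 D209N-early regions, 8.37% (6.96 to 10.0), held at least the 464 bp that was the list's median, compared with 62.5% of shared regions. For Flag-early regions in Flag day 3 the share at or above that list's median was 14.8% (13.8 to 15.9). Interval widths are tied to the listing threshold that also sets presence, so they describe the regions and support nothing about the arms. Whether a weak signal near that threshold decides the absence from Flag day 3 was not tested.

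Presence in both day 7 lists was set by the rule. Widths at day 7 are therefore a description and do not measure agreement between the arms. D209N day 7 held more base pairs than Flag day 7 in 589 regions, fewer in 658 and the same number in 7, which is 47.0% (44.2 to 49.7) wider in D209N, with a median difference of -7.50 bp. Flag-early regions gave 49.1% (47.6 to 50.5) and gained regions 48.4% (47.3 to 49.6), while shared regions gave 52.2% (51.6 to 52.9). Within the D209N arm, 76.4% (74.0 to 78.7) of the D209N-early regions were wider at day 7 than at day 3, by a median of 105 bp, compared with 79.8% (79.2 to 80.3) and 133 bp for shared regions.

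**Figure D2:**
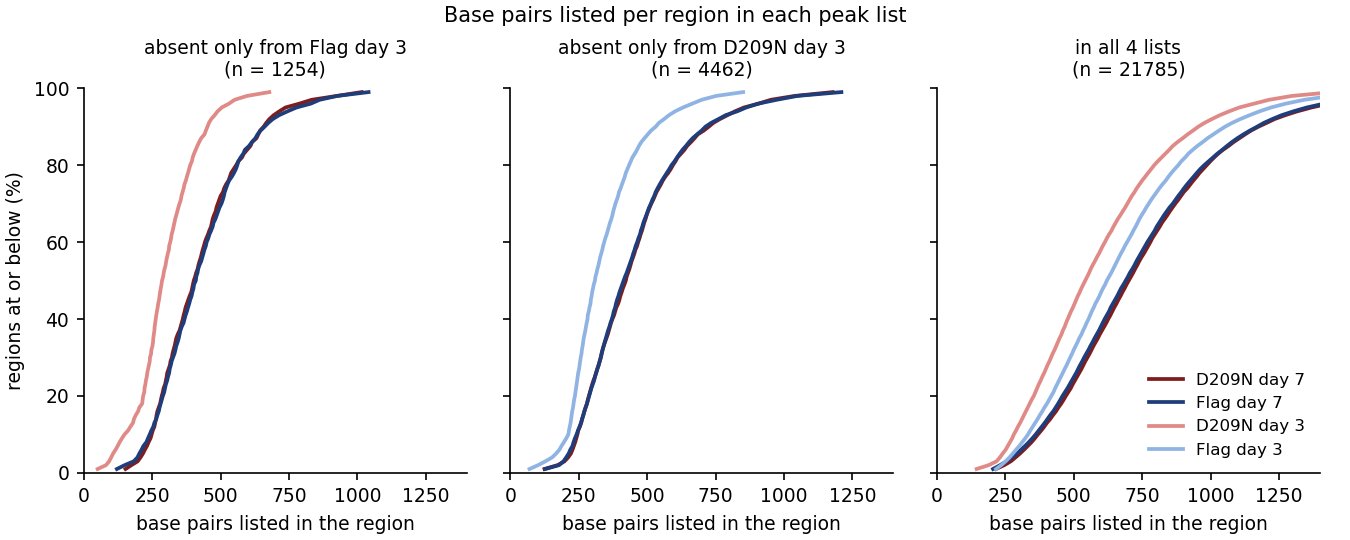
Cumulative share of regions (y axis, %) against the base pairs a list holds in each region (x axis) for the D209N-early, Flag-early and shared sets, with 1 line per peak list that holds the set. In every panel the medians of the day 3 lines lie left of those of the day 7 lines, and the day 7 lines of the arms nearly coincide; in the D209N-early panel the medians are 402, 410 and 286 bp for D209N day 7, Flag day 7 and D209N day 3.

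Distance to the nearest Flag day 3 interval shows how near the absent list came. Its quartiles were 5.81, 14.1 and 31.7 kb, 75 of the 1254 regions had such an interval within 1 kb, and 501 within 10 kb. The D209N-early regions with the closest Flag day 3 interval lay by St8sia1 at 10 bp, Adgrb2 at 12 bp, Lin7c at 16 bp, Stag2 at 26 bp and Zfp692 at 68 bp. Just outside the rule were shared regions with very little Flag day 3 coverage, near Fryl with 21 bp, Hmgb1 with 22 bp, Zfp968 with 25 bp, Exph5 with 26 bp and Timm10 with 27 bp. In 1227 of the 1254 regions (97.8%) the D209N day 3 interval itself overlapped an interval of both day 7 lists, and in the other 27 the lists were joined through a neighbouring interval.

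Serial numbers in the peak names did not set presence, but they belong to the same lists whose intervals chose the regions. They are therefore not separate evidence. Names carry rep1 and a number that ascends along each list with numbers left out, and 73.0% of the numbers were present in D209N day 7, 78.5% in Flag day 7, 79.5% in D209N day 3 and 90.0% in Flag day 3. Over all steps from one interval to the next, a number was left out in 9.95% in Flag day 3 and 20.2% in D209N day 3. A number was left out between the Flag day 3 intervals on either side of 334 of 1253 D209N-early regions, 26.7% (24.3 to 29.2), and for the remaining 919 (73.3%) the numbers ran on without a gap. Gained regions, absent from both day 3 lists, gave 26.8% (25.7 to 27.8) in the same Flag day 3 numbering, so the D209N-early regions did not stand apart from them. Flag-early regions had a number left out of the D209N day 3 list around 60.1% (58.6 to 61.5) of them, compared with 48.6% (47.4 to 49.7) of gained regions in that numbering. Where flanking intervals lay at most 50 kb apart, the shares were 23.0% (19.4 to 26.9) for D209N-early and 20.3% (18.8 to 21.9) for gained regions in Flag day 3, and 48.9% (46.3 to 51.5) for Flag-early and 34.0% (32.0 to 36.1) for gained regions in D209N day 3. No label or header says why numbers are missing, and their part in the absences was not tested.

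D209N-early regions lay mostly away from gene ends. Of the 1254, 174 (13.9%, 12.1 to 15.9) lay within 1 kb of an annotated end of a protein-coding gene, 569 (45.4%) inside a gene farther from its ends, and 511 (40.7%) outside genes. Flag-early regions were at a gene end in 23.5% (22.3 to 24.8), gained regions in 15.1%, regions of D209N day 3 alone in 5.47% and shared regions in 46.3%. The interval of the D209N-early share included the value of gained regions and ended below those of Flag-early and shared regions. More than 100 kb from any coding gene end were 176 D209N-early regions (14.0%, 12.2 to 16.1), against 9.12% (8.31 to 10.0) of Flag-early, 9.56% (8.90 to 10.3) of gained, 26.0% of D209N day 3 alone and 8.63% of shared regions. The median distance of a D209N-early region to a coding gene end was 16.2 kb (quartiles 4.11 and 51.5), and the medians were 10.0 kb for Flag-early, 13.7 kb for gained, 32.3 kb for D209N day 3 alone and 2.46 kb for shared regions.

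**Figure D3:**
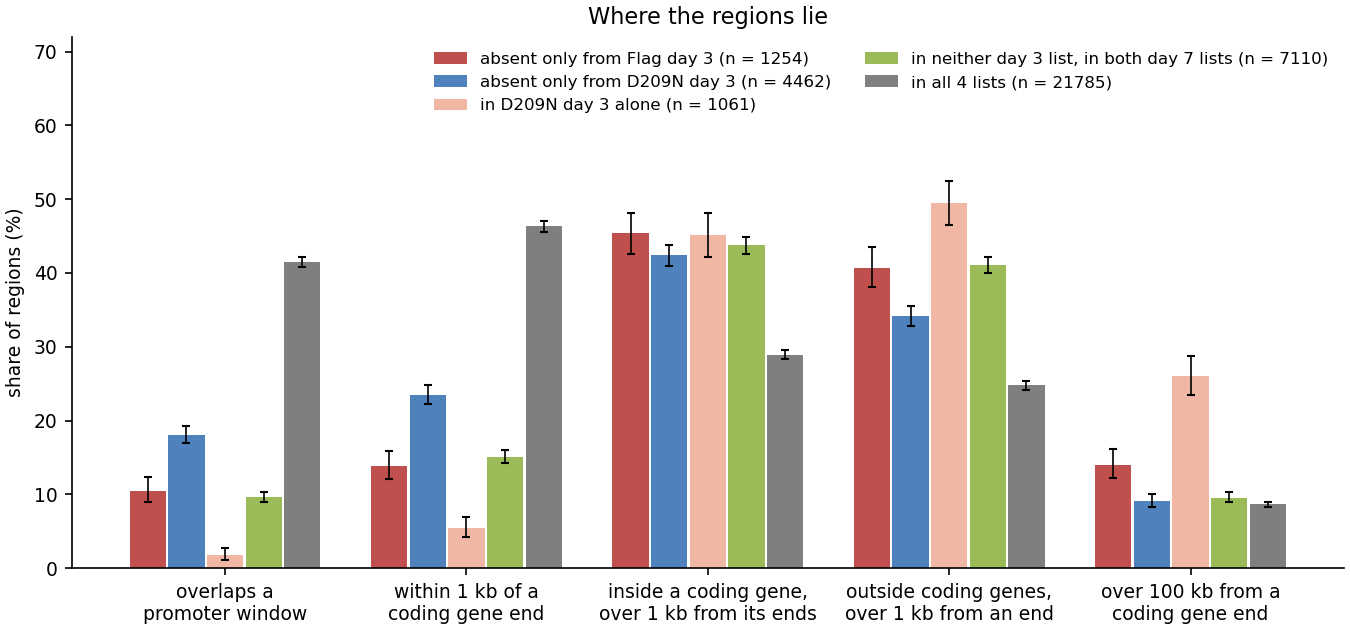
Share of regions (y axis, %) by position relative to RefSeq genes (x axis) for the 5 sets, with 95% Wilson intervals as whiskers; the categories overlap. D209N-early regions (red) touch a promoter window in 10.5% and lie within 1 kb of a coding gene end in 13.9%, close to gained regions (green) and below Flag-early regions (blue) and shared regions (grey).

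All chromosomes held D209N-early regions. Their share of a chromosome's regions was lowest on X, at 19 of 1234 or 1.54% (0.988 to 2.39), and highest among the autosomes on chromosome 19, at 49 of 1546 or 3.17% (2.41 to 4.17). Relative to Flag-early regions the ratio was 0.186 on X, 0.231 on chromosome 6 and 0.538 on chromosome 19. Chromosome Y had 3 D209N-early regions among its 25, all 3 assigned to Gm52481 from distances of 47.1, 48.4 and 65.7 kb.

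The widest D209N-early regions by base pairs in D209N day 3 were scattered over the genome, and 1 of the first 10, at Ppp1r8, touched a promoter window. A region inside Myof, which encodes the membrane repair protein myoferlin (chr19:37959306-37960285), held 484 bp in D209N day 7, 658 bp in Flag day 7 and 950 bp in D209N day 3, with the nearest Flag day 3 interval 27.9 kb away. The region over the start of Ppp1r8 (chr4:132842396-132843590), whose promoter is printed above, held 833, 1005 and 878 bp in the same lists, and Flag day 3 had nothing within 40.5 kb. A region 11.8 kb from Tbc1d7, a partner of the TSC complex, held 986 bp in D209N day 7, 311 bp in Flag day 7 and 836 bp in D209N day 3. In 3 of the 10, inside Myof, inside Selenoi and 1215 kb from Cited2, the D209N day 3 interval was wider than both day 7 intervals. The region in Selenoi, a phospholipid synthesis enzyme, held 203 bp in D209N day 7, 74 bp in Flag day 7 and 768 bp in D209N day 3.

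The nearest genes of the remaining regions of these 10 were of varied function. Col4a2, a basement membrane collagen chain, held 1086 bp in D209N day 7, 614 bp in Flag day 7 and 735 bp in D209N day 3 inside the gene. Hbegf, an EGF-family ligand, had a region 11.8 kb from the gene with 1023, 924 and 710 bp in the same lists. Cd47, the signal that restrains phagocytosis, had one 58.2 kb away with 662, 826 and 771 bp. Regions more than 100 kb from a gene end, named by their nearest gene and assigned to none, were those inside Mast4, a kinase gene (423, 766 and 746 bp), inside Dst, which encodes a cytoskeletal linker (814, 354 and 685 bp), and nearest to Cited2, a transcriptional co-regulator (407, 249 and 682 bp).

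When each was given to the nearest protein-coding gene end at a distance of up to 100 kb, 1078 D209N-early regions belonged to 1012 genes, 4.62% of the 21887 coding genes. Flag-early regions belonged to 3314 genes, or 15.1%. Most of the 1012 genes, 951, held 1 D209N-early region, 56 held 2 and 5 held 3. These genes had a median of 4.00 assigned regions against 2.00 over all coding genes that had any. The count includes the D209N-early regions themselves. A gene with more regions also has more places for one, so the higher median follows in part from how the genes were picked. Of the 1012 genes, 758 (74.9%) also held a shared region and 313 (30.9%) a Flag-early region as well, so a gene could carry regions that were early in either arm. These shares were not compared with genes matched for their number of regions. For 164 genes (16.2%) no region of the Flag day 3 list was assigned, and for Flag-early regions 843 of 3314 genes (25.4%) had none of the D209N day 3 list.

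The 5 genes with 3 D209N-early regions differed in how full the Flag day 3 list was around them. Cdk19, a kinase of the Mediator complex, had 9 assigned regions in D209N day 7, 8 in Flag day 7, 6 in D209N day 3 and 3 in Flag day 3. Ptpn5, a brain-enriched tyrosine phosphatase, had 4, 5, 3 and 0 in the same order, so all of its D209N day 3 regions were D209N-early. Jade2, a subunit of histone acetyltransferase complexes, had 7, 9, 3 and 3, and 2 of its regions were Flag-early, so equal totals in the day 3 lists stood for different regions. Rhou had 20, 20, 10 and 10, and Gm52481 on chromosome Y 12, 9, 6 and 5. Among genes with 2 D209N-early regions, Ppp1r8 had 2, 2, 2 and 0, Ano1, a calcium-activated chloride channel, 7, 7, 2 and 1, Insyn1 4, 4, 4 and 2, Cd47 9, 9, 9 and 7 and Myof 11, 14, 7 and 7.

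**Figure D4:**
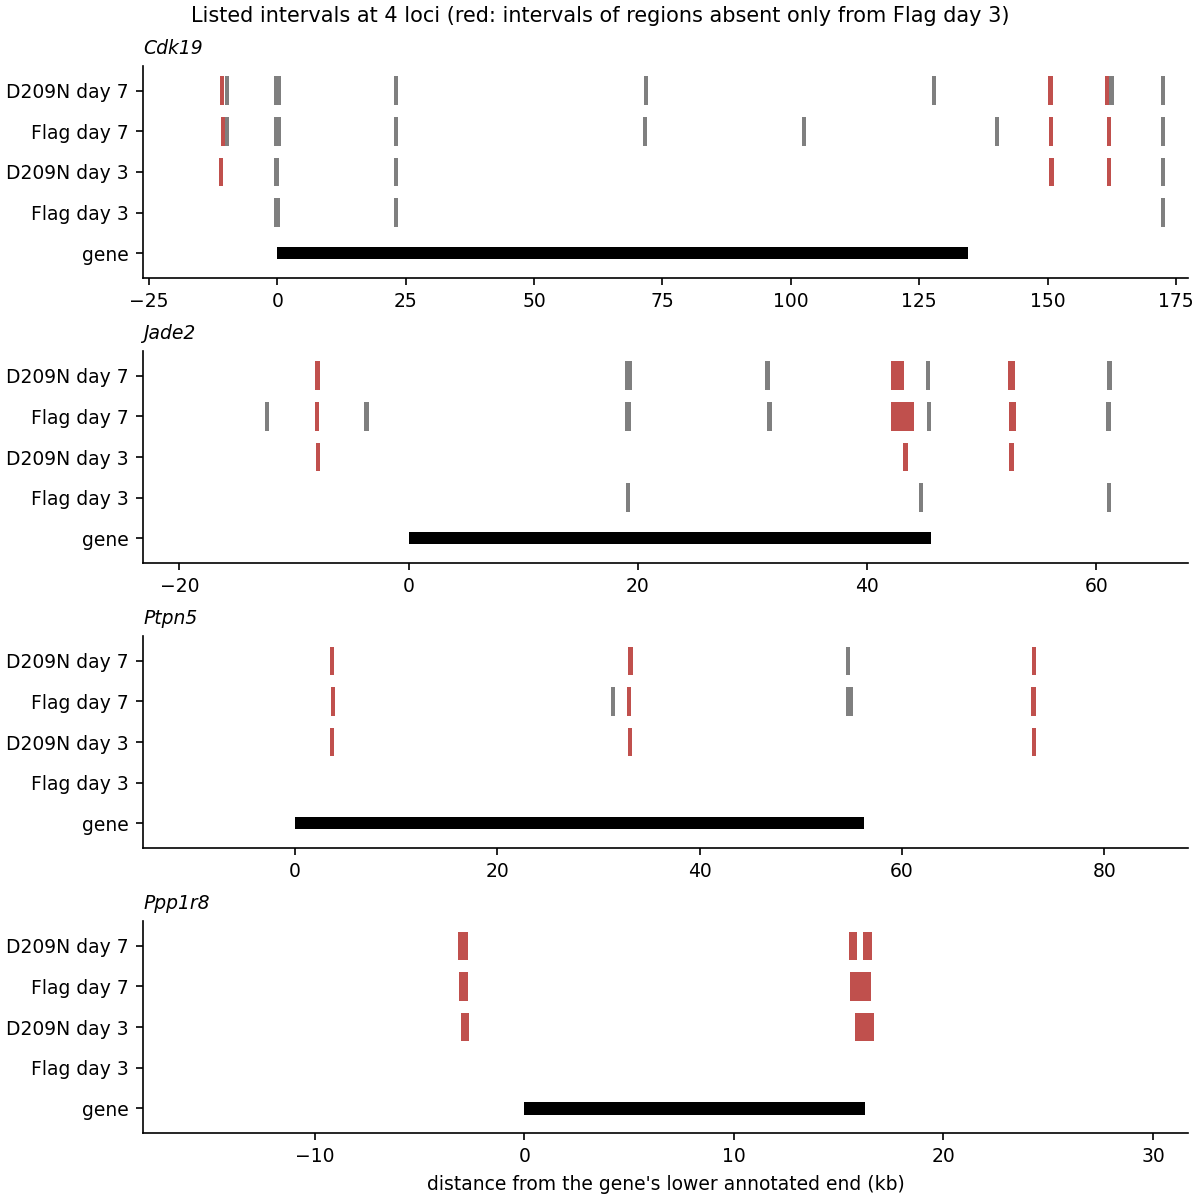
Listed intervals in the 4 peak lists (rows) at Cdk19, Jade2, Ptpn5 and Ppp1r8, by distance from the lower annotated gene end (x axis, kb), with D209N-early intervals in red, other intervals in grey and the gene as a black bar; narrow intervals are drawn wider than scale so that they can be seen. The Flag day 3 row holds 3 intervals at Cdk19, 3 at Jade2, 0 at Ptpn5 and 0 at Ppp1r8, none of them in a D209N-early region.

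Runs of D209N-early regions were short. No stretch of 100 kb held more than 3, and 10 stretches held 3. Ranked by base pairs in D209N day 3, the first 3 ran over 73.4 kb on chromosome 5 at Selenoi and Drc1, over 21.7 kb on chromosome 8 at the neighbouring collagen genes Col4a1 and Col4a2, and over 78.2 kb on chromosome 12 at Adssl1, Zbtb42 and Gm46382. The ranking among ties was set after the values were seen.

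Gene groups were compared by how many of their genes had an assigned D209N-early region, against 4.62% of all coding genes, and an assigned Flag-early region, against 15.1%. Over all 17 lists, 43 of 367 genes (11.7%) had a D209N-early and 93 (25.3%) a Flag-early region, so the listed genes were above the background for both sets. That background includes coding genes with no assigned region, since 16159 of the 21887 had any. It was not matched for the number of regions per gene, so a group above it is not shown to be enriched, nor one below it depleted. Among 38 pluripotency genes, 0 had a D209N-early region and 8 (21.1%) a Flag-early region. Genes of R-loop processing, the helicases and nucleases that resolve hybrids, gave 0 of 27 and 5 (18.5%). Muscle markers gave 0 of 12 and 1 (8.33%). At the background of 4.62%, lists of this size would hold few genes with a D209N-early region. A count of 0 is therefore near that background and does not show a lack.

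Factors of the AP-1, TEAD and RUNX families, which hold open the enhancers of fibroblasts, had a D209N-early region at 5 of 21 genes (23.8%) and a Flag-early region at 7 (33.3%). The region 20.7 kb from Fos held 611 bp in D209N day 7, 396 bp in Flag day 7 and 172 bp in D209N day 3. Fosb, another AP-1 subunit, had one with 313, 219 and 231 bp in the same lists. Wwtr1, the TEAD co-activator TAZ, had a wide region inside the gene with 1009, 1067 and 403 bp. Junb had one over its start with 298 bp in D209N day 7, 348 bp in Flag day 7 and 98 bp in D209N day 3, and a Flag day 3 interval lay 0.765 kb away. Runx1, which is also in the mesenchymal and blood lists, had one inside the gene with 227, 314 and 275 bp and held 3 Flag-early regions as well.

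Genes of the p53 response had a D209N-early region at 4 of 18 (22.2%) and a Flag-early region at 4 (22.2%). Trp53, which encodes p53, had a region over its start with 365 bp in D209N day 7, 411 bp in Flag day 7 and 248 bp in D209N day 3, while Flag day 3 had an interval 0.588 kb away. Btg2, an anti-proliferative p53 target, had one at the gene's far end with 613, 253 and 173 bp in the same lists. Gadd45b, of a stress-induced family, had one 7.47 kb from the gene with 458, 578 and 231 bp. Trp53inp1, a p53-induced nuclear protein, had one 8.72 kb from the gene with 422, 667 and 260 bp.

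Ligands, inhibitors and targets of BMP and TGF-beta signalling, a pathway that acts on the loss of mesenchymal character in reprogramming, had a D209N-early region at 4 of 28 genes (14.3%) and a Flag-early region at 11 (39.3%). Bmp7, a BMP ligand, had one 0.531 kb from an end with 491 bp in D209N day 7, 359 bp in Flag day 7 and 121 bp in D209N day 3. Smad7, the inhibitory Smad, had 2 inside the gene, one with 393, 317 and 161 bp and one with 428, 471 and 350 bp in the same lists. Ltbp1, which binds latent TGF-beta, had one 45.4 kb from the gene with 381, 393 and 388 bp. Id4, a target gene of BMP signalling, had one 48.7 kb from the gene with 355, 286 and 279 bp.

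Matrix genes of fibroblasts had a D209N-early region at 4 of 26 (15.4%) and a Flag-early region at 11 (42.3%). Loxl1, an enzyme that crosslinks elastin, had one over an end with 529 bp in D209N day 7, 447 bp in Flag day 7 and 223 bp in D209N day 3. Sparc, a collagen-binding matrix protein, had one inside the gene with 431, 486 and 468 bp in the same lists. Col16a1 had 2 inside the gene and Col6a3 1 at 47.8 kb from the gene. Mesenchymal genes had a D209N-early region at 4 of 31 (12.9%), namely Twist2, Thy1, Tgfbr3 and Runx1, and a Flag-early region at 10 (32.3%). Those of Twist2 and Runx1 lay inside the gene, that of Tgfbr3 19.1 kb and that of Thy1 60.8 kb from it.

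Epithelial genes, which rise when fibroblasts lose mesenchymal character, had a D209N-early region at 4 of 30 (13.3%) and a Flag-early region at 3 (10.0%). The region near Grhl2, an epithelial transcription factor, lay 97.1 kb from the gene over the start windows of the non-coding genes Gm34820 and Gm41301, and held 364 bp in D209N day 7, 435 bp in Flag day 7 and 285 bp in D209N day 3. Spint1, a protease inhibitor of epithelia, had one 1.39 kb from the gene with 649, 645 and 401 bp in the same lists, and the Flag day 3 list held no region assigned to the gene. Marveld2, a tight junction protein, had one 14.0 kb from the gene with 554, 313 and 255 bp. Dsp, the desmosomal protein desmoplakin, had one 27.4 kb from the gene with 268, 309 and 277 bp.

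Interferon response genes had a D209N-early region at 4 of 21 and a Flag-early region at 3 (14.3%). Ifnb1, which encodes interferon beta, had 1 assigned region in D209N day 7, 1 in Flag day 7, 1 in D209N day 3 and 0 in Flag day 3, a D209N-early region of 393, 411 and 343 bp in the lists that held it, 6.13 kb from the gene. Irf1, a transcription factor of the response, had one 25.4 kb from the gene with 498, 535 and 527 bp. Ifih1, the RNA sensor MDA5, had one with 303, 321 and 214 bp, and Ifnar2, an interferon receptor chain, one inside the gene with 260, 296 and 343 bp. Cell cycle genes had 1 of 26 (3.85%), Ccnd3, and 6 (23.1%) with a Flag-early region. Polycomb genes had 3 of 29 (10.3%) and 6 (20.7%). Of these, Phf19 had a region over its start with 525 bp in D209N day 7, 556 bp in Flag day 7 and 227 bp in D209N day 3, Kdm2b one of 573, 1090 and 59 bp, and Bcor one of 597, 280 and 283 bp beside 6 Flag-early regions.

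Markers of other cell types had D209N-early regions too. Endothelial markers had a D209N-early region at 4 of 12 genes (33.3%) and a Flag-early region at 4 (33.3%). The D209N-early ones lay inside Pecam1, 10.5 kb from Flt1 and 43.3 kb from Cldn5. Erg had 2, 1 inside the gene and 1 at 17.6 kb from it. Neural markers had 3 of 15 with a D209N-early and 6 with a Flag-early region. The region over the start of Nes (chr3:87970386-87971771) held 1117 bp in D209N day 7, 1092 bp in Flag day 7 and 262 bp in D209N day 3, with the nearest Flag day 3 interval 2.31 kb away. Neurog1, a neurogenic transcription factor, had one 28.6 kb from the gene with 615, 714 and 446 bp in the same lists. Endoderm and trophoblast markers had 2 of 16 (12.5%), Gata6 and, at a distance of 56.8 kb, Eomes, and 6 (37.5%) with a Flag-early region. Gata6, a transcription factor of primitive endoderm, had its D209N-early region over an end with 457, 432 and 386 bp, and no Flag day 3 interval lay within 301 kb. Macrophage and blood markers had 2 of 12 (16.7%), Csf1r and Runx1, and 2 (16.7%), and keratinocyte markers 1 of 10 (10.0%), Itga6, and 2 with a Flag-early region.

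At gene ends the D209N-early regions reached 200 coding genes, 0.914% of all, and Flag-early regions 1129, or 5.16%. Of the 200 genes, 134 (67.0%) had no Flag day 3 interval within 1 kb of either end, and of the 1129 genes with a Flag-early region at an end 916 (81.1%) had no D209N day 3 interval there. The listed genes with a D209N-early region at an end were Bmp7, Btg2, Gata6, Junb, Loxl1, Nes, Phf19 and Trp53. Gata6, Loxl1, Nes and Phf19 had no Flag day 3 interval within 1 kb of either end, while Bmp7, Btg2, Junb and Trp53 had one at an end. That end need not be the one with the D209N-early region. The nearest Flag day 3 interval lay 301 kb from the Gata6 region, 0.654 kb from that of Loxl1, 2.31 kb for Nes and 8.29 kb for Phf19. For Bmp7, Btg2, Junb and Trp53 the distances were 39.4, 4.00, 0.765 and 0.588 kb.

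Promoter windows of 142 genes, 111 protein-coding and 31 long non-coding, were touched by 132 of the D209N-early regions. Taking 1 window per gene with at least 150 bases inside the region left 120 windows, with a median GC content of 60.2% and a median CpG ratio, observed over expected CG dinucleotides, of 0.618. The 735 windows of Flag-early regions had medians of 64.0% and 0.713, the 515 of gained regions 62.7% and 0.662, the 9972 of shared regions 62.7% and 0.808, and all 32851 annotated windows had 52.7% and 0.384. Median GC skew was 0.00 in the D209N-early windows, 0.02 in Flag-early, 0.03 in gained, 0.01 in shared and 0.01 in all windows. By this measure of strand asymmetry the D209N-early promoters lay within the spread of the others, whose quartiles were -0.08 and 0.11 in the Flag-early and -0.06 and 0.13 in the gained windows, against -0.08 and 0.09 in the D209N-early windows.

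AP-1 motif matches had a higher share of the D209N-early promoter windows than of the windows of Flag-early, gained or shared regions. The letters TGANTCA, which read the same on both strands, occurred in 18 of 120 windows, 15.0% (9.70 to 22.5), from 16 separate regions. The share was 5.99% (4.49 to 7.94) in Flag-early, 8.35% (6.26 to 11.1) in gained, 4.09% (3.72 to 4.50) in shared and 7.81% (7.52 to 8.10) in all windows, and the D209N-early interval overlapped only that of gained windows among these. The few windows in regions of D209N day 3 alone had a higher share, 3 of 8 or 37.5% (13.7 to 69.4), whose interval overlapped that of the D209N-early windows. Of the 18 windows, 9 belonged to long non-coding genes, and with protein-coding genes only the share was 9.78% (5.23 to 17.6) in D209N-early, 5.57% (4.00 to 7.73) in Flag-early, 7.21% (5.07 to 10.2) in gained and 3.76% (3.38 to 4.18) in shared windows, where the D209N-early interval overlapped those of the Flag-early and gained windows. CpG-poor windows carried most of the matches. With a CpG ratio under 0.6 they were found in 14 of 56 D209N-early windows (15.5% to 37.7%), against 10.6% (7.35 to 15.1) in Flag-early, 12.9% (9.13 to 17.9) in gained, 7.84% (6.71 to 9.15) in shared and 10.2% (9.83 to 10.7) in all windows of that kind, and the interval overlapped that of gained windows. At a ratio of 0.6 or more they were in 4 of 64, 6.25% (2.46 to 15.0), against 3.67% in Flag-early, 4.83% in gained, 3.23% in shared and 3.46% in all windows. These splits and the protein-coding count were chosen after the values were seen, 12 motifs were searched, and a match is a run of letters and not a bound site.

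The 3 stretches below hold the AP-1 match, in capitals, with 40 bases on either side. They are the coding genes among the 18 windows whose match lay with both flanks before the gene start and outside any annotated gene, a choice made after the values were seen, and each stretch lay whole inside its D209N-early region.
Ifitm3, chr7:141010803-141010889, minus strand: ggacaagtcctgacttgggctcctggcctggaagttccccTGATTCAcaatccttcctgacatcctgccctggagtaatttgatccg
Plpp7, chr2:32095425-32095511, plus strand: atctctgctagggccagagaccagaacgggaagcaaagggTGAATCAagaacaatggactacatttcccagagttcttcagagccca
Tspyl3, chr2:153225464-153225550, minus strand: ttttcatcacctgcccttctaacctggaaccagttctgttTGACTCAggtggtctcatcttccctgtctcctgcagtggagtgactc
The match ended 98 bases before the start of Ifitm3, an antiviral membrane protein, 56 before that of Plpp7 and 62 before that of Tspyl3. The Ifitm3 region held 260 bp in D209N day 7, 311 bp in Flag day 7 and 92 bp in D209N day 3, with a Flag day 3 interval 1.28 kb away. The Plpp7 region held 335, 427 and 152 bp in the same lists, with the nearest at 41.9 kb, and the Tspyl3 region 339, 561 and 116 bp, with the nearest at 7.69 kb. In all 3 the day 3 interval was narrower than both day 7 intervals.

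**Figure D5:**
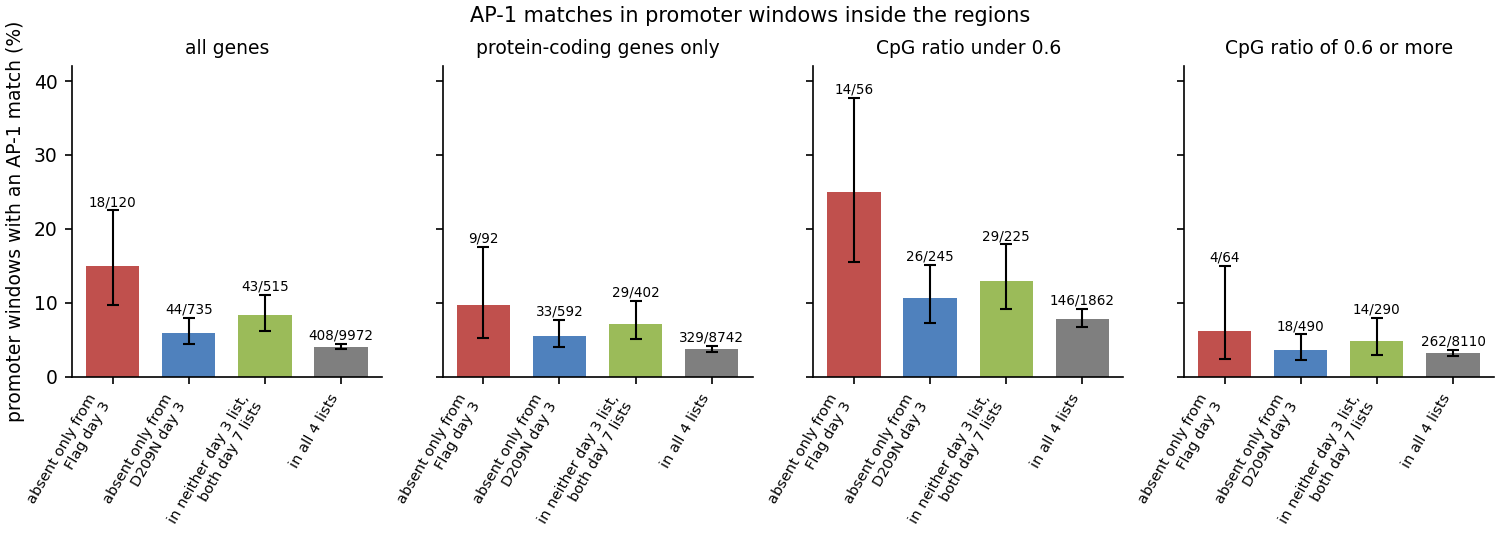
Share of promoter windows with a match to the AP-1 motif (y axis, %) in the D209N-early, Flag-early, gained and shared sets, over all genes, protein-coding genes only, and windows with a low or high CpG ratio; the numbers above the bars give windows with a match over all windows of the set, and whiskers are 95% Wilson intervals. The D209N-early bar is the tallest in each panel, at 15.0% over all genes and 9.78% over protein-coding genes, where its whisker overlaps those of the Flag-early and gained bars.

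For motifs of the delivered factors, the D209N-early windows and the Flag-early windows differed by less than their counting error. The KLF and SP box CCCCNCCC was in 52.5% (43.6 to 61.2), against 52.9% (49.3 to 56.5) in Flag-early and 33.2% in all windows. The Myc E-box CACGTG was in 14.2% (9.04 to 21.5), against 9.12% (7.24 to 11.4) in Flag-early, 10.8% in shared and 7.15% (6.88 to 7.43) in all windows. The octamer ATGCAAAT was in 1 of 120 windows, 0.833% (0.147 to 4.57), against 1.09% in Flag-early and 1.74% in all windows. The SOX motif ACAATG was in 5, or 4.17% (1.79 to 9.38), against 7.35% in Flag-early and 12.6% in all windows. Of the other motifs searched on both strands, the CCAAT box of NF-Y was in 26.7% (19.6 to 35.2), against 31.3% in Flag-early, 39.7% in shared and 37.4% in all windows, and the ETS motif CCGGAAG in 7.50% (4.00 to 13.6), against 7.48% in Flag-early, 19.6% in shared and 8.86% in all windows. The RUNX motif TGTGGT was in 15.8% (10.4 to 23.4), against 9.39% (7.49 to 11.7) in Flag-early and 16.8% in all windows. The CTCF core AGGGGGC was in 13.3% (8.38 to 20.6), against 20.4% (17.7 to 23.5) in Flag-early and 10.6% in all windows. TATAAA was in 6.67%, the TEAD motif ACATTCC in 3.33% and the cAMP response element TGACGTCA in 1.67%, against 6.39%, 4.22% and 1.36% in Flag-early windows, and their shares over all windows were 13.6%, 3.85% and 1.79%.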

How the data were processed

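ATAC-seq was deposited by the authors as 1 BED list of named intervals per group, without scores or read counts. CASAVA, Bowtie2 2.3.2 and the builds mm10 and GRCm38.p5 are listed in the submitters' processing notes. For the peak caller, its threshold, any shift of insertion sites and the joining of the 2 labelled replicates, the sources used here give nothing, and every peak name carries rep1. The arm and day in the peak names tied a list to its group. Of the 82 samples in the series, only the 8 ATAC-seq samples were used.

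Intervals on chromosomes 1 to 19, X and Y were joined where they overlapped or touched, and an overlap of at least 1 bp counted as presence. The 3 mitochondrial intervals of each list were left out. Gene positions came from the RefSeq table of GRCm38.p6, a patch release with the chromosome coordinates of GRCm38, which gives gene ends without exons. The nearest end of a protein-coding gene, if at most 100 kb from a region's centre, decided its gene. Motif and base composition were read from RefSeq promoter windows only, since no genome sequence was used, although the plan named region sequence too. Of the listed symbols, 2 (Mx1 and Mx2) were not found as protein-coding genes. No test was made, because each group has 1 list. Steps ran in Python 3.11.15 with numpy 2.4.6, pandas 2.3.3, scipy 1.17.1 (Wilson intervals) and matplotlib 3.10.9. Joining, presence and the distance to gene ends were tested on simulated data, and the base pairs covered per region were not.

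The regions, gene lists and motifs were chosen with earlier results of these data known. Named genes were the 10 regions with most D209N day 3 base pairs, every region within 1 kb of an end of a listed gene, the 10 genes with most regions, the 5 regions on either side of the rule's limit, and the 3 densest 100 kb stretches. Other listed genes with an assigned region are named with their group. Alternatives varied the joining, the minimum overlap, the width and absence rules, the gene end window and the assignment.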

Additional observations from a re-analysis of the deposited data

How the results depend on the processing

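With at least 100 bp covered, intervals joined up to 500 bp apart, absence required within 1000 bp, intervals that share a name joined, no union, or chromosome Y left out (chosen after seeing the data), D209N-early regions numbered 1179 to 1359 and Flag-early regions 4262 to 4686, and the ratio stayed between 0.275 and 0.290. Requiring a day 3 interval at least as wide as its list's median left 103 D209N-early and 640 Flag-early regions, a ratio of 0.161. The share at a gene end was 16.2% with day 3 peaks compared directly and no union, 10.9% within 500 bp and 18.2% within 2000 bp. The median distance was 6.56 kb to the end of any annotated gene. The share with a missing number in Flag day 3 was 23.0% for flanks at most 50 kb apart. The AP-1 share was 14.1% with windows of at least 1 base in the region, 9.78% for protein-coding genes and 14.3% with 1 window per region, all chosen after seeing the data. Of the 10 genes with most regions, 8 had fewer when assigned within 20 kb (0 at Rhou, Gm52481, Myof, Insyn1 and Cd47), and 10 kept their number when assigned by gene body. No paired analysis was possible because each group has 1 deposited list, and leaving out a replicate was not possible either. Without reads or scores, depth and signal over background are unknown, so absence from a list cannot be told from a weak signal.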
